A study of Drosophila melanogaster with 6 samples.

Results

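Peaks of N6-methyladenosine (m6A) CLIP were described here where they fell on long non-coding RNA genes of fly heads. A peak was a member when it overlapped, by at least 1 bp, the span of a gene whose symbol begins with lncRNA: or asRNA: (an antisense RNA) in the RefSeq table of the Release 6 assembly. Of 28206 peaks in 3 deposited lists, 960 were members, or 3.40%. They numbered 382 of 14329 in replicate 1, 296 of 7232 in replicate 2 and 282 of 6645 in replicate 3, a mean of 320 ± 54.1 (SD, n = 3). Because many of these genes lie within or across protein-coding genes, members were split by their midpoint. In replicates 1, 2 and 3, 278, 152 and 125 members had their midpoint in a protein-coding span (555 in all, called inside), and 104, 144 and 157 did not (405 in all, called outside).

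The libraries came from heads of w1118cs Drosophila melanogaster, males and females together, on a standard diet, and all groups share this genotype and diet. Each biological replicate used about 800 heads and 20 ug of poly(A)-selected RNA, fragmented, bound by an antibody against m6A and crosslinked to it with ultraviolet light, and 3 CLIP and 3 input libraries were made. The age of the flies is not given in the labels. Heads were pooled and sexes mixed, so no value belongs to one animal or one sex. The labels call the cell type neurons, but the material was whole heads. Of 7 neuron marker genes, 6 had a peak in all 3 lists. So did 5 of 6 for glia, 6 of 6 for photoreceptors, 3 of 5 for fat body and 5 of 5 for muscle, against 13.9% of all protein-coding genes. The lists were thus not those of neurons alone.

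m6A is a methyl mark that a methyltransferase complex places on adenosines of polyadenylated RNA, where it is read by YTH domain proteins and bears on splicing, decay and translation. Long non-coding RNAs are transcripts without a long open reading frame. In flies they include the structural RNAs of dosage compensation, a scaffold of the omega speckles of the nucleus, and the primary transcripts from which microRNAs are cut. An antisense RNA is read from the strand opposite to a gene that it overlaps, so only strand tells its reads from those of that gene.

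For each peak the lists give CLIP reads averaged over bins of 50 bp and the averaged log of the input reads, with no scaling for depth. The ratio used below divides the CLIP value by the input value after 1 read is added to each, on the log2 scale. A ratio of 0 is no baseline, because library totals are unknown. Its median over all peaks was 0.17, 1.58 and -0.42 in replicates 1, 2 and 3, so levels were compared within a list. Where a ratio at a region is averaged over lists, the list's own median was first subtracted, and the result is called the centred ratio. The lowest CLIP value of a listed peak was 7, 25 and 7 reads per bin, and a gene with no peak may still have been bound or expressed below that level. In whole heads, fewer cells of a type and less RNA per cell cannot be told apart. The RefSeq table used here has neither strand nor exons, so positions are given within whole spans, introns included, and exonic and intronic peaks were not separated.

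Few of the long non-coding RNA genes had a peak. Of 2447 genes in the table (1944 lncRNA and 503 asRNA), 189 had a member peak in any list, or 7.72%, and 67 had one in all 3 lists, or 2.74%. The same shares of protein-coding genes were 29.7% and 13.9%. Peaks were found in 160, 112 and 90 of the genes in replicates 1, 2 and 3. Replicate 1, the longest list, had 62 genes with a peak in no other list, against 14 for replicate 2 and 7 for replicate 3. Genes with a peak in all 3 lists had a median span of 1405 bp, those with a peak in 1 or 2 lists 1576.5 bp, and those with none 697 bp, so span length moved with the presence of a peak, and its part was not tested.

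The genes with peaks were mostly those that touch a protein-coding gene. Of the 1072 genes that touch a protein-coding span, 150 had a peak in any list (14%) and 53 in all 3 (4.94%). Of the 1375 genes free of such a span, 39 had a peak in any list (2.84%) and 14 in all 3 (1.02%). In 139 genes every member peak was inside a protein-coding span, where strand decides to which gene a peak may belong. The other 50 genes had at least 1 outside peak, and 16 of them had an outside peak in all 3 lists. Peaks of a gene kept to a single strand in 109 of the 119 genes with 2 or more peaks, and in 10 they lay on both. No matching count over protein-coding genes is given, so this is not read as a trait of these genes.

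**Figure D1:**
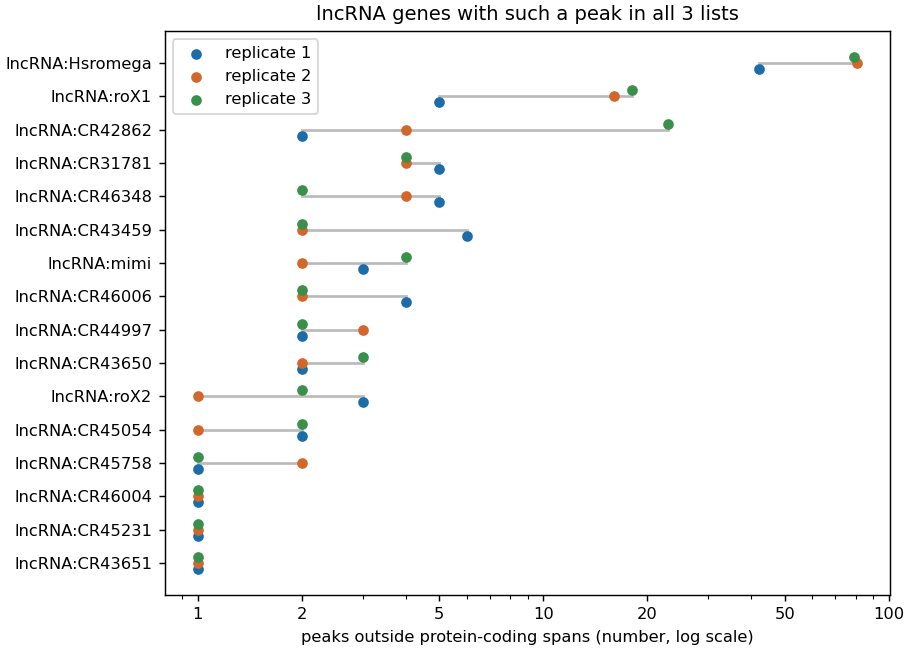
Number of peaks outside protein-coding spans (x axis, log scale) in the 16 genes with such a peak in all 3 lists; points are the lists, coloured by replicate, and the grey line joins the lowest and the highest. Hsromega had 42, 81 and 79 peaks, and every other gene had 23 or fewer in each list.

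Outside members were concentrated in a few genes. Hsromega alone held 40.4%, 56.3% and 50.3% of them in replicates 1, 2 and 3. roX1 followed with 5, 16 and 18 peaks, and lncRNA:CR42862 with 2, 4 and 23. The remaining 13 genes with an outside peak in all 3 lists had 1 to 6 in a list. Peaks of 1 gene share that transcript and its level, so they are not replicates of one another.

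The CLIP to input ratio of members was compared with that of the other peaks of the same list. The median ratio was 0.00, 1.092 and -0.96 for members against 0.17, 1.62 and -0.32 for the other peaks in replicates 1, 2 and 3. Members were lower in 3 of 3 lists. The mean difference was -0.45 ± 0.25 (SD, n = 3), with a two-sided exact permutation p of 0.6. With 3 lists a side the smallest p this test allows is 0.10, so it cannot pass 0.05. The test does not pair the values of a list, so the offset between lists enters its spread, and paired by list the exact permutation p was 0.25, again the smallest possible. The difference was -0.28 without Hsromega and -0.05 without Hsromega, roX1 and CR42862. Restricted to peaks with at least 10 input reads per bin, the difference was 0.06, with the opposite sign.

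Outside members as a whole lay at places of higher input, which rested on 3 genes. They had a median of 21.5, 27.3 and 26.3 input reads per bin, against 8, 12 and 13 for the other peaks, with no overlap between the 2 sets of values and an exact permutation p of 0.1, the smallest possible. This quantity was added after the values were seen. Without Hsromega, roX1 and CR42862 the medians were 6.13, 14.5 and 10, lower than the other peaks in 2 of 3 lists. The CLIP medians of all outside members were 12.5, 49.0 and 10.8 reads per bin against 10, 38 and 10 (exact permutation p = 0.5). The median ratio of all outside members was -0.63, 0.96 and -1.11, a difference from the other peaks of -0.75 ± 0.08 (SD, n = 3), lower in 3 of 3 lists (exact permutation p = 0.5, or 0.25 paired by list). This direction turned without the same 3 genes, when the medians were 0.58, 2.04 and -0.08, above the other peaks in 3 of 3 lists. Without Hsromega alone they were 0.44, 0.82 and -1.17, higher in 1 list and lower in 2. Inside members had a median ratio of 0.25, 1.38 and -0.58, against 0.17, 1.65 and -0.29 for the other peaks in protein-coding spans (exact permutation p = 0.8). The other peaks outside protein-coding spans had median inputs of 60.5, 50.5 and 96.8 reads per bin and median ratios of -1.45, 1.21 and -1.28. Against these, outside members had lower input in every list. Their ratio was higher in replicates 1 and 3 and lower in replicate 2.

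**Figure D2:**
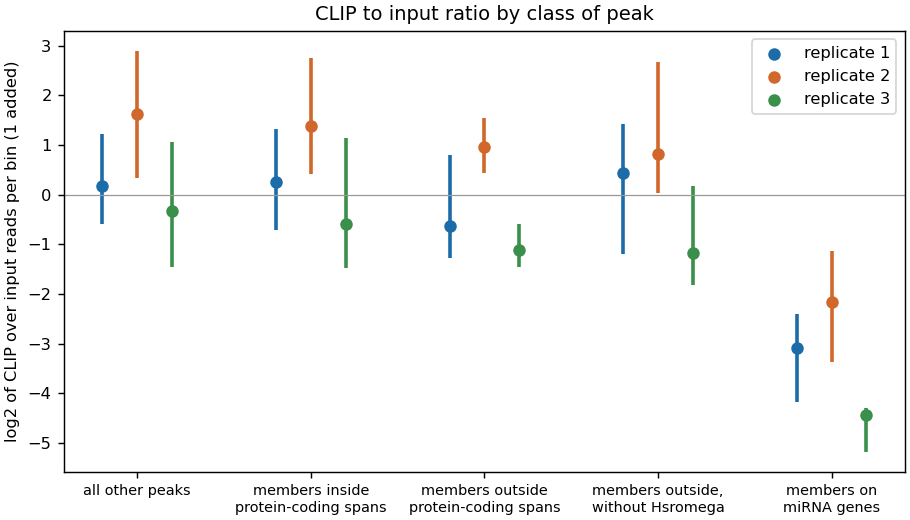
Median CLIP to input ratio (points, log2 with 1 read added) with lower and upper quartiles (bars) in each list, for other peaks, members inside and outside protein-coding spans, outside members without Hsromega, and members on miRNA genes. Outside members lie below the other peaks of their own list in all 3 lists, but without Hsromega they lie above them in replicate 1 (0.44 against 0.17), and members on miRNA genes lie lowest, at -3.08, -2.15 and -4.43.

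A peak that is found again on the same strand in both other lists is called recurrent here. Of all peaks, 23.6%, 51.1% and 60.6% in replicates 1, 2 and 3 were recurrent. Among members 33.0%, 49.0% and 57.1% were recurrent, against 23.4%, 51.2% and 60.8% of the other peaks, a mean difference of 1.24 percentage points (exact permutation p = 1). The sign of this difference was not stable. Members were above the other peaks in replicate 1 and below them in the other two lists, and without replicate 1 the difference was -2.95 points. Outside members without Hsromega were recurrent in 38.7%, 55.6% and 76.9% of cases. That subset was formed after the values were seen, so no p is given. In CLIP reads per bin, members and other peaks differed by 1.9 in their mean of medians (exact permutation p = 0.7), and the median width was 50 bp in both (p = 1 by the same permutation test).

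Regions shared by all 3 lists allow the same place to be followed across replicates. Members formed 165 shared regions in 66 genes, 81 of them outside and 84 inside. Of the 4197 shared regions of all peaks, 44.6% lay above the list's median ratio in all 3 lists and 42.6% at or below it. Of the outside regions, 13 were above (16.0%) and 66 at or below (81.5%). Of the inside regions, 32 were above (38.1%) and 41 at or below (48.8%). The outside figures were carried by 3 genes: Hsromega, roX1 and CR42862 held 60 of the 81 regions, 56 of them at or below the medians in all 3 lists. The other 21 regions split into 11 above and 10 at or below. Regions cut from the same wide peak share its value and are not separate observations. In replicate 1 the outside regions of CR42862 came from 2 peaks and those of roX1 from 5.

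Hsromega, the heat shock RNA omega gene whose nuclear transcripts form the core of omega speckles and bind hnRNPs, lies at 3R:21296127-21317836 and spans 21710 bp. All of its 42, 81 and 79 peaks were on the plus strand and none lay in a protein-coding span. They covered 37.8%, 64.3% and 37.3% of the span in replicates 1, 2 and 3. CLIP reads per bin had a median of 12.4 in replicate 1, with a range from 7 to 25.4. In replicate 2 the median was 52, with a range from 25 to 145, and in replicate 3 it was 10.5, with a range from 7 to 48. The input had nearly the same median in the 3 lists, at 25.5, 27 and 25.5 reads per bin. The median ratio was -1.05, 0.97 and -1.08, below the median of all peaks in each list.

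The stretches of Hsromega covered by peaks differed in part between replicates. Counted from the low-coordinate end, the eighth to thirteenth kb were covered to 0.833% in replicate 1, 74.2% in replicate 2 and 60.4% in replicate 3. The first 7 kb were covered to 40%, 67.5% and 42.5%, and the rest of the span from the fourteenth kb to 61.4%, 54.8% and 17.2%. Replicate 1 thus had 2 blocks with a gap between them, replicate 2 was covered throughout, and replicate 3 was covered most in the middle. Recurrence was 35.7%, 30.9% and 25.3%, against 23.6%, 51.1% and 60.6% of all peaks. Few of its peaks were without any partner: 23.8%, 2.47% and 0% overlapped a peak of neither other list. Among peaks that were no members these shares were 61.2%, 14.4% and 12.7%. Hsromega had 20 shared regions. The one with the highest mean ratio, 3R:21296651-21296800 near the low-coordinate end, had 25.4, 85.3 and 13.7 CLIP against 25.5, 21.9 and 17.1 input reads. The lowest, 3R:21316401-21316500 near the other end, had 12.4, 31.3 and 8 CLIP against 34.0, 38.1 and 131 input reads. At the shared region with the highest mean, the centred ratio was -0.17, 0.33 and 0.11, below the list median in replicate 1 and above it in replicates 2 and 3. The highest ratio of any single Hsromega peak in replicates 1 and 3 was 0.008 and 0.68, against list medians of 0.17 and -0.42.

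**Figure D3:**
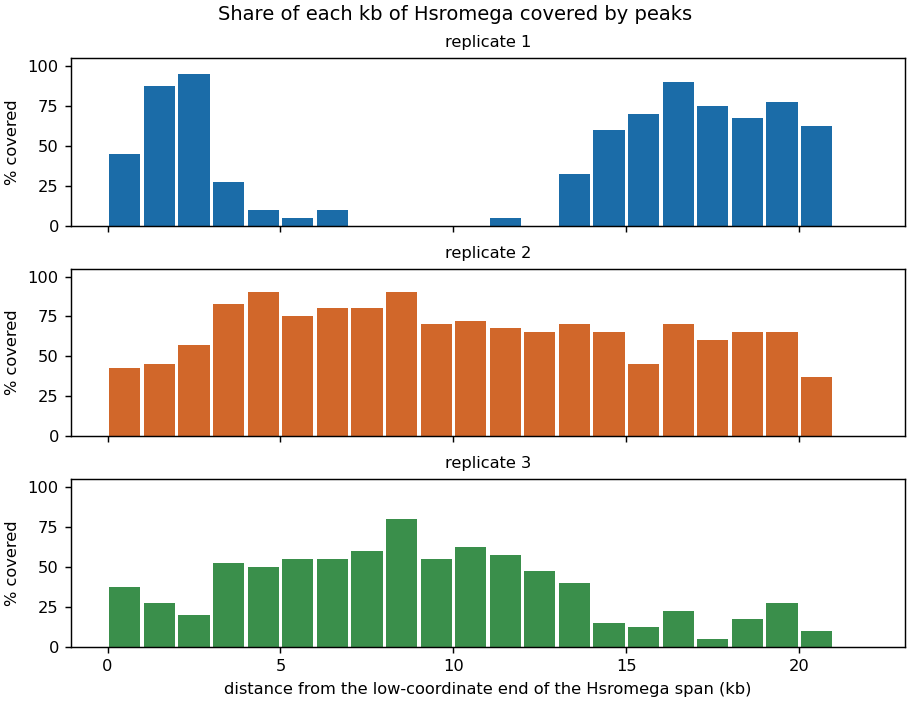
Share of each kb of the Hsromega span covered by peaks (y axis, percent) against the distance from its low-coordinate end (x axis, kb), 1 panel per replicate. The eighth to thirteenth kb were covered to 0.833% in replicate 1, 74.2% in replicate 2 and 60.4% in replicate 3.

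The roX RNAs are the RNA components of the male-specific lethal (MSL) complex, which raises transcription of the male X chromosome. roX1 lies at X:3857230-3862697, and its 5, 16 and 18 peaks were all on the minus strand, which puts the 5′ end of the transcript at the high coordinate. The peaks within 250 bp of that end stood apart from the rest. In replicate 1 a single such peak had 46.2 CLIP and 10.2 input reads per bin, a ratio of 2.08. In replicate 2 a pair of peaks had ratios of 2.699 and 2.76, and in replicate 3 a pair had 0.85 and 0.69. The other peaks of roX1 had a median ratio of -0.61, 0.12 and -1.36, and their highest were -0.26, 0.85 and 0.14. The 2 sets did not overlap in any of the 3 lists. This window was chosen after the values were seen, so the difference was not tested.

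Input was lower in the 5′ window of roX1 than at any of its other peaks. It was 10.2 reads per bin in replicate 1, 10.4 to 13.2 in replicate 2 and 9.54 to 10.1 in replicate 3, while the rest had medians of 31.5, 32.4 and 21.5. CLIP was 46.2, 76 to 91.3 and 16 to 19 in the window, and at most 21.8, 54.5 and 21.5 elsewhere. In replicate 3 the CLIP values therefore overlapped and the ratios did not. At the 3′ end, 1671, 1671 and 1721 bp of the span had no peak. Recurrence was 100%, 87.5% and 94.4% for roX1 as a whole, against 23.6%, 51.1% and 60.6% of all peaks. The peaks of replicate 1 reached widths of 1500 bp, so each is easily overlapped.

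**Figure D4:**
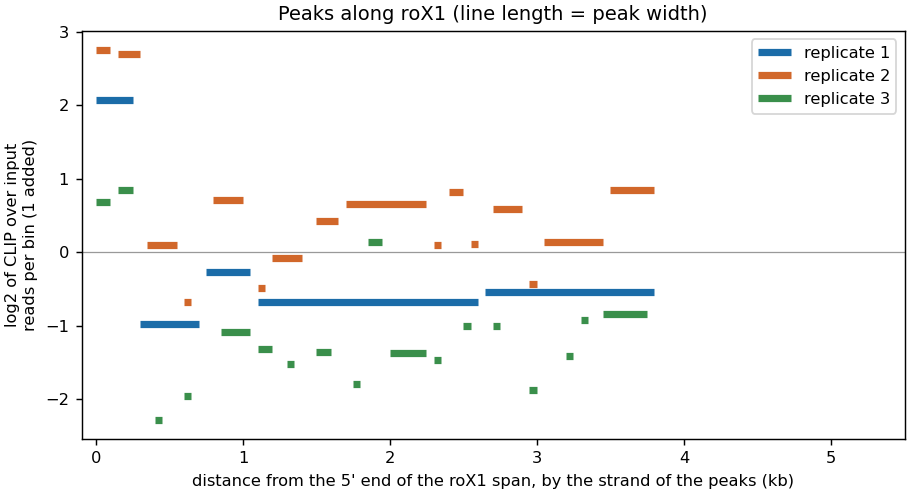
CLIP to input ratio (y axis, log2 with 1 read added) of each roX1 peak against its distance from the 5′ end of the span by the strand of the peaks (x axis, kb); each line is a peak, as long as the peak is wide, coloured by replicate. The peaks at the 5′ end are the highest of their list, at 2.08 in replicate 1, 2.76 in replicate 2 and 0.85 in replicate 3.

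roX2, at X:11579065-11580432, had 3, 1 and 2 peaks, all on the plus strand. One region, X:11579901-11579950, was shared by the 3 lists. CLIP gave 17.5, 99.5 and 40 reads per bin there and input gave 12.2, 14.5 and 17. Every list had more CLIP than input, and the centred ratio was 1.01 ± 0.65 (SD, n = 3). The protein partners of both RNAs had no peak in any list: this held for all 5 of msl-1, msl-2 and msl-3, the acetyltransferase gene mof and the helicase gene mle. Of all protein-coding genes 29.7% had a peak in any list, so a count of 0 among 5 is no result about these genes.

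Several members lay on genes of small RNAs within a long non-coding span. MicroRNA hairpins are cut from such primary transcripts in the nucleus and then trimmed to the mature miRNA. The spans of 41 member genes held 54 miRNA genes, of which 12 had a peak in any list and 6 in all 3, namely mir-14, mir-8, mir-276a, mir-277, mir-34 and mir-1000. Of all lncRNA and asRNA genes, 7.72% had a peak in any list and 2.74% in all 3. No matching count over all miRNA genes is given, so this is no result about miRNA genes. Members on miRNA genes numbered 12, 8 and 6 in replicates 1, 2 and 3. Their median ratio was -3.08, -2.15 and -4.43, against 0.06, 1.11 and -0.94 for members elsewhere. The difference was -3.30 ± 0.18 (SD, n = 3), in the same direction in 3 of 3 lists. The median input there was 244, 309 and 450 reads per bin. The 10, 7 and 9 peaks on miRNA genes that were no members had median ratios of -1.54, 2.59 and -2.87. Their median inputs were 31, 345 and 327 reads per bin. Their ratio was below the median of all peaks in replicates 1 and 3 and above it in replicate 2. The class was formed after values were seen, so no test is given, and the part of the high input in the ratio was not tested.

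lncRNA:CR43651 carries mir-14, a miRNA with roles in fly metabolism. Its single bin 2R:9553801-9553850 had 80, 90 and 27 CLIP against 2503, 1453 and 1616 input reads. lncRNA:CR46006 carries mir-276a, and its bin 3L:10365251-10365300 had 79, 93 and 37 CLIP against 1620, 1384 and 1584 input reads. CLIP counts at these bins were high for a peak while the input was far higher, with centred ratios of -5.38 ± 0.24 and -4.98 ± 0.48 (SD, n = 3).

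lncRNA:CR43459 is the shared precursor of mir-277 and mir-34, and mir-34 is known in flies for its role in ageing of the brain. The mir-277 bin, 3R:10100051-10100100, had 60, 88 and 50 CLIP against 386, 357 and 525 input reads. The mir-34 bin, 3R:10100951-10101000, had 24, 42 and 18 CLIP against 1153, 397 and 375 input reads. In lncRNA:CR43650 the bin on mir-8, 2R:16831451-16831500, had 40, 72 and 11 CLIP against 373, 261 and 281 input reads. All 3 bins thus had more input than CLIP reads in every list.

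The same precursors carried other peaks away from the hairpins. In CR46006, a region nearer the 5′ end than mir-276a on the same strand, 3L:10332651-10332750, had 15, 69.5 and 15.5 CLIP against 3.46, 4.58 and 2.83 input reads per bin. Its ratio was 1.84, 3.66 and 2.11, above the median of all peaks in each list. CR43650 also had peaks near its low-coordinate end, with ratios of 0.46 in replicate 1, 3.62 in replicate 2, and 2.17 and 1.00 in replicate 3. CR43459 had 4 further peaks in replicate 1, with ratios from -0.46 to 1.42, and none in the other lists. Hosts of other well known fly miRNAs had no peak on the hairpin in any list, among them those of bantam and mir-124. let7C, the precursor of let-7, mir-100 and mir-125, had a peak on let-7 in replicate 1, with 14 CLIP and 260 input reads, and no peak in the other lists.

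Small nucleolar RNAs, which guide the modification of ribosomal RNA, also carried member peaks. The spans of 6 member genes held 11 of them, of which 9 had a peak in any list and 8 in all 3. A count over all snoRNA genes is not given, so this is no result about snoRNA genes. lncRNA:CR45184, within the splicing factor gene Sf3b3, held 5, each with a peak in every list. At snoRNA:Me28S-G3113a, 3L:827751-827850, CLIP was 239, 770.5 and 133 reads per bin against 166, 113 and 103 in the input, a centred ratio of 0.77 ± 0.41 (SD, n = 3). The other snoRNA peaks of that gene had ratios from -1.55 to 0.21 in replicates 1 and 3 and from 0.70 to 3.58 in replicate 2, where snoRNA:Me28S-G3113b was the highest. asRNA:CR31144, within the ribosomal protein gene RpL3, held snoRNA:Me18S-C1096, where 3R:11222401-11222500 had 114, 357.5 and 78 CLIP against 289, 144 and 190.5 input reads per bin. The median ratio over members on snoRNA genes was -1.45, 1.06 and -1.25 in replicates 1, 2 and 3, below the median of all peaks in each.

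**Figure D5:**
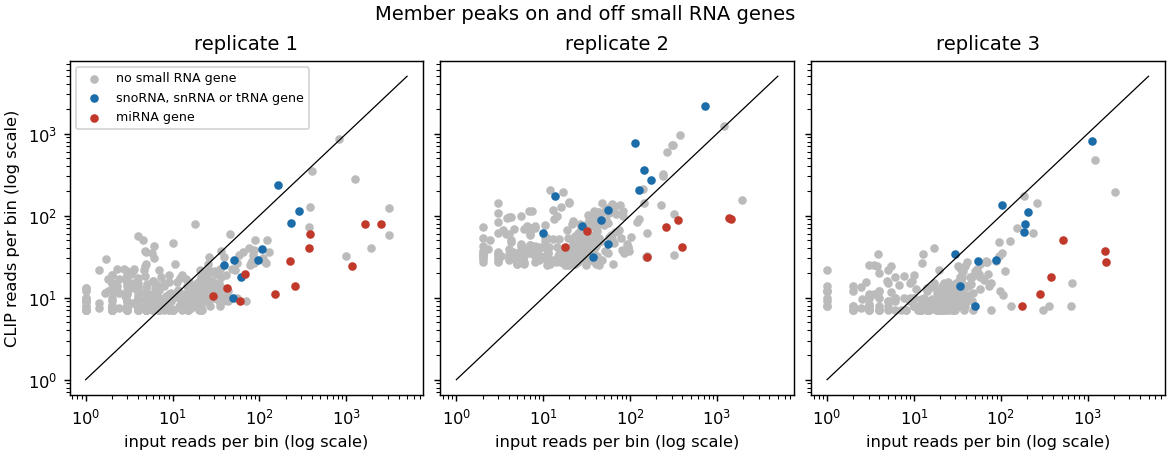
CLIP reads per bin (y axis, log scale) against input reads per bin (x axis, log scale) of every member, 1 panel per replicate, coloured by whether the peak lies on a miRNA gene, on another small RNA gene or on none; the line marks equal reads. The 12 miRNA peaks of replicate 1 and the 6 of replicate 3 lie below the line, as do all but 2 of the 8 of replicate 2.

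Among the other outside genes, lncRNA:CR42862 (3L:224106-230964) had few and wide peaks in replicate 1. Peaks covered 82.4%, 75.8% and 52.5% of its span, in 5, 6 and 25 peaks, some of them inside a protein-coding span. In 3L:229401-229750 CLIP was 26.4, 76.0 and 21 against 54.6, 42.1 and 37.1 input reads per bin, a centred ratio of -0.77 ± 0.41 (SD, n = 3). The first of these values is the mean of a single peak of 4300 bp. All 23 of its shared outside regions were at or below the list medians in all 3 lists. They were cut from 2 outside peaks in replicate 1 and 4 in replicate 2 and repeat the values of those peaks. The 23 regions are therefore not separate observations.

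mimi (3R:23983503-23985065) also had wide peaks over most of its length, and mir-9381 lies at its start. In replicate 1 a peak of 1000 bp had 22.5 CLIP and 48.6 input reads per bin, and in replicate 2 a peak of 1100 bp had 64.6 and 32.2. In replicate 3 the same stretch held 4 peaks with ratios from -1.88 to -0.77. All 4 shared regions were at or below the list medians, but they repeat the value of a single peak in replicate 1 and of another in replicate 2.

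Other outside genes had shared regions with ratios above the list medians. In lncRNA:CR31781 (2L:16869346-16878300) the peaks over 2L:16870501-16870850 had 37, 65.3 and 18.2 CLIP against 4.85, 7.03 and 7.66 input reads per bin, a centred ratio of 1.85 ± 0.59 (SD, n = 3). In lncRNA:CR45054 (3R:10083381-10090525) the peaks over 3R:10083601-10083750 had 30.1, 75.2 and 18 CLIP against 6.13, 6.42 and 6 input reads per bin, a centred ratio of 1.86 ± 0.09 (SD, n = 3). Both regions lay above the list medians in every list. Other peaks of these genes did not: CR31781 had a bin at 2L:16874651-16874700 with 38 and 12 CLIP against 80 and 98 input reads in replicates 2 and 3, and CR45054 had a peak with a ratio of -0.15 in replicate 1.

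lncRNA:CR46348 (3L:22570364-22572033) had 5, 4 and 2 peaks, on the minus strand, with ratios from 0.65 to 3.21. lncRNA:CR45758 (3L:22960930-22961668) had peaks over 3L:22961351-22961400 with 14, 38.7 and 10 CLIP against 2.29, 2.29 and 3 input reads per bin. lncRNA:CR44997 had a shared region at its low-coordinate end with ratios of 0.89, 2.53 and 1.58. In these 5 genes the 9 shared regions were all above the medians in 3 lists.

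In a pair of outside genes 1 list stood apart from the other lists. In lncRNA:CR45231 the bin 2R:19787501-19787550 had 123, 732 and 8 CLIP against 3102, 311 and 361 input reads, a ratio of -4.65, 1.23 and -5.33. Its centred ratio was -4.82, -0.35 and -4.91, below the list medians in every list but close to that of replicate 2. lncRNA:CR46004 had 1 peak in each list, but that of replicate 1 lay away from the place shared by replicates 2 and 3. At the shared place, 3L:10310851-10310900, CLIP was 33 and 7 reads against 319 and 308 in the input. The ratios there were -3.23 and -5.27, both below the list medians of 1.58 and -0.42.

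Position along the transcript was read from the strand of the peaks. Over all outside members, those in the first 20% of the span from the 5′ end had a median ratio above the rest by 0.63 ± 0.45 (SD, n = 3). Without Hsromega, those in that stretch had a median ratio of 0.98, 2.699 and 0.85, against -0.23, 0.58 and -1.36 for the rest, a difference of 1.85 ± 0.55 (SD, n = 3). The other peaks in a single protein-coding span differed by 1.82 ± 0.21 (SD, n = 3). In outside members without Hsromega, roX1 and CR42862 the difference was 1.64 ± 0.58 (SD, n = 3). When the peaks on miRNA genes were left out as well, it was 0.58 ± 0.28 (SD, n = 3). These subsets were formed after values were seen, so no p is given. Input moved with position too: its median in the first 20% was 6.06, 10.6 and 8 reads per bin and in the rest 10, 34.7 and 31.5, and its part in the ratio was not tested.

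For peaks inside a protein-coding span, strand was the only guide to the gene. A host strand was set where the protein-coding gene had at least 3 peaks in the other lists, all on 1 strand. It could be set for 185 of the 555 inside members, and 169 lay on the host's strand. The 16 on the opposite strand were 8.65%, or 8.64%, 10.6% and 7.02% by list. Among the other peaks the share was 0.87%, or 0.52%, 1.38% and 0.91% by list. Only peaks that were no members set the host strand. A repeated opposite peak therefore removed its host when it was no member, but not when it was a member. The 2 sets of shares are thus not alike, and their difference was not tested. Most member peaks inside these hosts thus had the strand of the host's own peaks.

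The 16 opposite peaks came from 8 genes. lncRNA:CR44417 in Mapmodulin had the bin 2R:17869151-17869200 in every list, with 26, 75 and 22 CLIP against 5, 8 and 5 input reads. lncRNA:CR45910 in msi, the gene of an RNA-binding protein, carries mir-1000, and its bin 3R:25588901-25588950 had 28, 31 and 8 CLIP against 227, 156 and 174 input reads. asRNA:CR42860, antisense within the titin-like muscle gene sls, had 3 peaks in replicate 1 and 2 in replicate 3, with ratios from 1.17 to 2.74. Those 5 were the opposite peaks found in asRNA genes. Irar, within the insulin receptor gene InR, had a peak in replicate 2, 3R:21593351-21593400, with 206 CLIP and 12 input reads, and none in the other lists.

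The spans of asRNA genes held 134, 67 and 60 member peaks, of which 134, 65 and 59 were inside. A host strand could be set for 77 of them over the 3 lists. On that strand lay 72, and 5 (6.49%) lay on the opposite one. An overlap with an asRNA span thus does not show that the peak belongs to the antisense RNA. Among the shared regions with the best ranks of CLIP reads, 3 lay in asRNA genes, that of CR31144 above and another pair. asRNA:CR45601 (X:10054235-10055109) overlaps Yp1, a yolk protein gene expressed in female fat body. The peak X:10054201-10055500 runs past both ends of the asRNA and had 128, 323 and 62.0 CLIP against 381, 241 and 234 input reads per bin. Its centred ratio was -1.46 ± 0.28 (SD, n = 3), and Yp1 and Yp2 are among the fat body markers with 2 peaks in each list. asRNA:CR45305 (2L:5070887-5071109) overlaps the ribosomal protein gene RpL37A and ends within the bin 2L:5071101-5071150. That bin, most of which lies beyond the asRNA, had 51, 100 and 32 CLIP against 123, 83 and 95 input reads.

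Among lncRNA genes inside protein-coding spans, the highest CLIP values of a shared region were in lncRNA:CR34335, within the cell surface protein gene DIP-alpha. Its peaks over X:3545751-3545950 had 861, 1254 and 479 CLIP against 829, 1218 and 1214 input reads per bin, a centred ratio of -0.86 ± 0.72 (SD, n = 3). noe, within the span of blot, was a single peak of the same ends in every list, 3L:17400251-17401350, which is close to the whole gene. It had 353, 733 and 144 CLIP against 404, 303 and 260 input reads per bin, a centred ratio of -0.37 ± 0.06 (SD, n = 3). Both genes were high in CLIP and in input.

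Others had ratios above the list medians in all 3 lists. lncRNA:CR43130, within aqz, had 78.6, 193.5 and 33.6 CLIP against 18.1, 16.9 and 12.6 input reads per bin in 3R:8819951-8820650, a centred ratio of 1.83 ± 0.07 (SD, n = 3). lncRNA:CR45962, within the teneurin gene Ten-m, had peaks over 3L:22407351-22407550 with 43, 114 and 34.5 CLIP against 6.08, 7.47 and 3.81 input reads per bin, a centred ratio of 2.65 ± 0.58 (SD, n = 3).

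In lncRNA:CR43900, within the calmodulin gene Cam, 2R:12260051-12260150 had 60.5, 209.5 and 35 CLIP against 46.1, 140 and 102 input reads per bin. In lncRNA:CR43604, within dachs, 2L:8485851-8485900 had 35.5, 113.5 and 49 CLIP against 129, 81.9 and 127 input reads per bin. The centred ratio of CR43900 was 0.22, -1.01 and -1.10, and that of CR43604 was -1.998, -1.12 and -0.94, so the latter lay below the list medians in every list. The gene with the most inside members was lncRNA:CR43836, which spans 76084 bp across rdgA and Nost and had 31, 16 and 9 peaks. Nearly all were in rdgA, a gene of the photoreceptor light response.

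Long non-coding RNAs with a name or a described role were looked up by symbol. Of 46 such genes, 15 had a peak in any list and 7 in all 3, against 7.72% and 2.74% of all lncRNA and asRNA genes. The list was chosen by what is known of its genes, and these 7 were Hsromega, roX1, roX2, mimi, noe, CR34335 and CRG. CRG, which overlaps CASK and is known to affect fly locomotion, had 8, 2 and 1 peaks, all inside CASK. The bin shared by the 3 lists, 3R:21784301-21784350, lay in peaks with 11.5, 37 and 20 CLIP against 9.54, 8 and 4 input reads per bin.

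Other named genes had a peak in 1 or 2 lists. enrr, within the span of the neuronal gene elav, had 2 peaks in replicate 1 and 1 in replicate 2, sharing the bin X:522851-522900 with 13 and 34 CLIP against 1 and 3 input reads. bxd of the bithorax complex had 1 peak in replicate 1, with 32 CLIP and 985 input reads. flam, the flamenco piRNA cluster, had 1 in replicate 2, with 32.5 CLIP and 3.22 input reads per bin. sphinx, known for a role in male courtship, had 2 in replicate 3, with 8 and 9 CLIP against 32.9 and 28 input reads per bin. CR43334, the precursor of bantam, had 1 in replicate 1, away from the hairpin. No peak was listed for yar, cherub, iab4, iab8, acal or Vinr.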

How the data were processed

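Each of 3 lists joins 1 CLIP and 1 input library. Reads of 151 bp were aligned to dm6 (BDGP6) with STAR 2.7.5a, per the submitters' processing notes. The peak caller is not given in the sources used here. The deposited signal is CLIP reads per bin of 50 bp, coverage not scaled to library size. A further column deposited by the authors is the natural log of input reads per bin, averaged over bins, and its exponential was used. Both readings were inferred from the values, and whether 1 was added before the log is unknown. The deposited p-value was used only to rank peaks. In peaks of several bins the input is a geometric mean, so ratios lean upward.

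Peaks were matched to RefSeq spans with Python 3.11.15, pandas 2.3.3 and numpy 2.4.6. Means over lists were compared by a two-sided exact permutation test (scipy 1.17.1), tested on simulated data. The library depth is unknown, so no counting interval is given. Alternatives covered overlap, threshold, pseudocount, input minimum, strand and left-out lists. Tests paired by list, and subsets without single genes, were added after the data were seen.

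Named were genes with a name or a described role (20 of 30 listed symbols matched) and the 10 outside and 10 inside genes with the best mean rank of CLIP reads in a shared region. A region is the part common to the 3 lists, and its values are those of the whole peaks. Other genes were chosen after values were seen. Members and lists were chosen with earlier results of these data known.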

Additional observations from a re-analysis of the deposited data

How the results depend on the processing

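Of 159 alternative values, 152 kept their direction or stayed within the set limits, including all 120 for the 20 named regions, which moved by less than 1 SD of the ratio before centring, an SD that holds the offset between lists. When only the peaks in the lower 50% by p were kept, there were 183 members per list in place of 320, and 42 genes with a peak in all 3 lists in place of 67. With outside peaks alone that number was 16, and with 1 list left out it was 75 to 90. The difference in recurrence, 1.24 points, was -0.92 with a required overlap of 50% and -1.74 for outside members, and -2.95 to 3.71 with 1 list left out, lowest without replicate 1. The difference in ratio, -0.45, was 0.058 with at least 10 input reads per bin. The cause was not tested. Limits: 3 lists cannot pass a two-sided exact permutation test at 0.05, and library totals, gene strand and exons were not used here. In the 31 members whose start and end were identical throughout, the median ratio was -0.26 with the replicate block and -0.27 with no replicate block. Over 644 such intervals of all peaks, the deviations of CLIP and input with the same number correlated at 0.19, -0.03 and 0.22, so the numbers were not shown to pair the libraries beyond the lists that join them.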
